A study of Mus musculus with 8 samples.

Results

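The genes described here are 10 members of the BCL2 family, which decides whether a cell keeps its mitochondria intact or dies by apoptosis, measured in CD11b+ bone marrow (BM) cells. They were taken by their names from a table of 41018 genes, and all 10 were found: the antiapoptotic genes Mcl1, Bcl2, Bcl2l1, Bcl2a1b and Bcl2a1d, the effector genes Bax and Bak1, and the BH3-only genes Bid, Bcl2l11 and Pmaip1. The cells came from C57BL/6 female mice of 5 to 8 weeks that were either educated with PC-EVs, extracellular vesicles shed by the mouse pancreatic adenocarcinoma line PAN02 (4 samples), or given PBS (4 samples). EVs were injected into the retro-orbital sinus at 5 µg a time, 3 times per week for 3 weeks. Control mice received PBS by the same route, although a label also calls these samples untreated. CD11b, an integrin subunit of neutrophils, monocytes and macrophages, was the handle by which magnetic beads pulled the cells out of marrow flushed from leg bones. For qPCR on such cells the study pooled several animals per point, but no source used here says whether a sequenced sample was a single mouse or a pool.

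BCL2 family proteins meet at the outer mitochondrial membrane. The antiapoptotic proteins hold the effectors BAX and BAK in check, and the BH3-only proteins, which are switched on by stress, loss of growth factors or death receptors, either occupy the antiapoptotic proteins or activate the effectors directly. Freed effectors open the membrane, cytochrome c leaves the mitochondrion, and the apoptosome with its caspases is assembled. Neutrophils, which make up most of the CD11b+ cells of the marrow, are short-lived and are known to depend on MCL1, a protein that is itself degraded within hours.

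The quantity read for each gene was the authors' Max group mean, the larger of the means of the PC-EV-educated and the PBS samples. It is a single value per gene, it does not say which group it belongs to, and the groups may differ from gene to gene. The difference between PC-EV-educated and PBS samples, and the spread between samples of a group, were therefore not analysed here for these genes. What the values do give is the level of each family member in these cells and its place among all other genes.

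The scale of these values could be read from the least abundant genes. Multiplied by the exonic length of the gene, the levels of 4277 genes fell on 8 values between 4.67 and 5.92. The search kept at most 8 values, the number of libraries, so that count alone is no evidence. The 4277 genes made up 96.9% of the 4415 genes below 1.5 times the lowest of these values, so few lay elsewhere. Such steps arise when a level is a count of reads divided by exonic length and by 1 constant per library. They do not tell what that constant is. On a scale that sums to 1000000 in each library, the larger group means would sum to at least 1000000, but the levels summed to 404642. The Max group mean was therefore taken to be in reads per kilobase of exon and per 1000000 counted reads (RPKM). Levels of genes can then be set side by side per length. In RPKM, and for a mean over 4 libraries, the steps correspond to depths of 42230000 to 53510000 counted reads, with a median of 47280000. No source used here says whether a counted read is a single read or a pair. Sums of pairs of steps were shared by 76 to 124 genes for each of 12 pairs and by 0 genes for each of the other 16, which divides the 8 steps into 2 sets of 4. The labels do not tie a step to a sample, so the sets were left without a group.

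**Figure D1:**
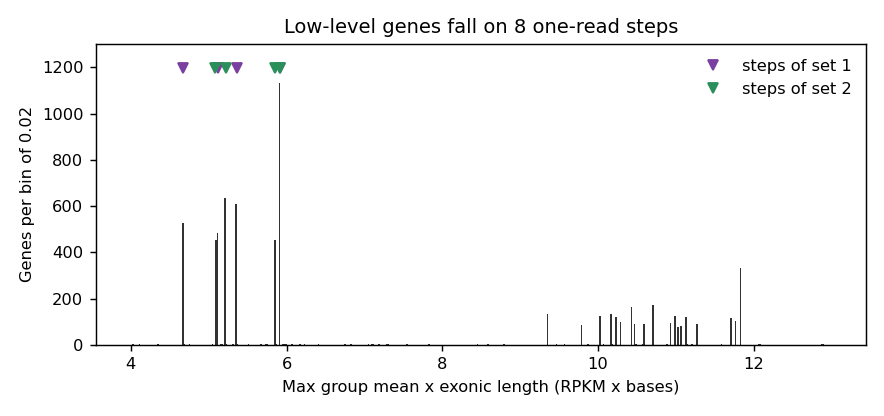
Number of genes per bin of 0.02 (vertical axis) against the Max group mean multiplied by exonic length (horizontal axis, RPKM times bases), for genes below 13; triangles mark the 8 steps by set. The genes sit on 8 sharp values between 4.67 and 5.92 and, further right, on sums of pairs of these.

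The labelled cell fraction was checked against marker genes. Neutrophil markers had the highest median of the marker lists and lay at 247 to 42151 RPKM for 7 genes. The granulocyte precursor markers Elane, Mpo and Prtn3 lay at 61.2 to 226 RPKM, 4 monocyte markers at 24.6 to 189 RPKM and 5 macrophage markers at 18.4 to 34.7 RPKM. The eosinophil markers Epx and Prg2 were at 22.3 and 285 RPKM, Prg2 above the lowest neutrophil marker, Ly6g. Of the markers of other lineages none was at 0: B cell markers lay at 0.264 to 3.54 RPKM, T cell markers at 0.0518 to 1.97 RPKM and NK cell markers at 0.255 to 17.1 RPKM, while 3 erythroid markers spanned 0.211 to 57.6 RPKM. The basophil and mast cell markers Mcpt8 and Cpa3 were at 2.78 and 0.819 RPKM, and the megakaryocyte markers Itga2b and Pf4 at 0.815 and 0.603 RPKM. The part of each cell type in the levels of the BCL2 family genes was not tested. The CD11b gene itself, Itgam, was looked up by name, but no level of it was at hand. The check therefore lacks the marker by which the cells were sorted. In such bulk samples a level does not say which cell type holds the transcript, and fewer cells of a type cannot be told apart from less RNA per cell.

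Mcl1 stood far above the rest of the family. It had a Max group mean of 147 RPKM and made up 68.5% of the summed level of the 10 members. The next gene, Bak1, reached 30.3 RPKM, and Bid 11.2 RPKM, while the remaining 7 members lay between 0.541 and 6.69 RPKM. The lowest was Bcl2, the founding gene of the family, 271-fold below Mcl1 per length. All 10 were above 0, and 9 of them were at 1 RPKM or above, against 9226 of the 28225 genes with a level above 0. Among protein-coding genes above 0, to which all 10 belong, it was 8638 of 18992. The median member was at 4.73 RPKM, against 0.102 RPKM over all genes above 0 and 0.568 RPKM over the 18992 of these that are protein coding. No test was made of this difference, since the members are a chosen list and not a sample of genes.

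**Figure D2:**
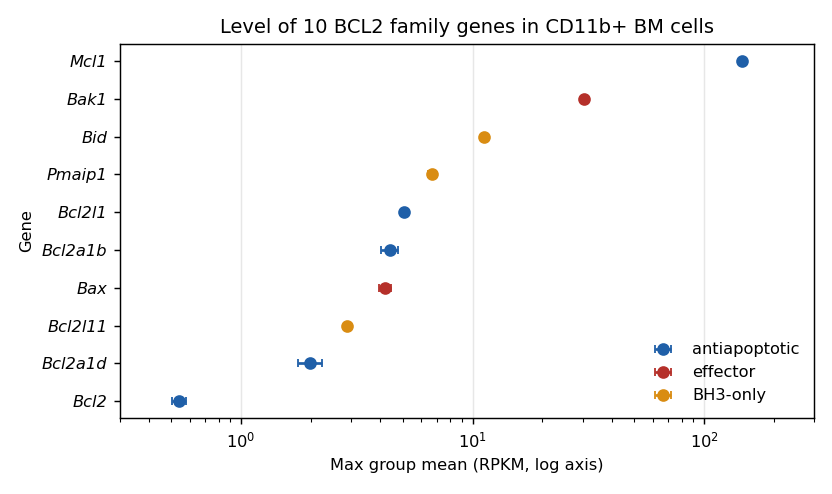
Max group mean in RPKM (horizontal log axis) of the 10 BCL2 family genes, ordered from high to low and coloured by role. Bars are exact 95% Poisson intervals for counting error only, and they leave out that the larger group mean was taken. Mcl1 at 147 RPKM and Bcl2 at 0.541 RPKM are the ends of the range, and only the bars of Bcl2a1b and Bax meet those of a neighbour.

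Counting error was small beside most of these gaps. The reads behind a level, summed over the 4 libraries of the group it came from, were estimated from the step sizes, and ranged from 84619 to 107211 for Mcl1 down to 291 to 368 for Bcl2a1d. Exact 95% Poisson intervals, taken at the lower estimate, ran from 146 to 148 RPKM for Mcl1 and from 0.505 to 0.579 RPKM for Bcl2. Of the 9 pairs of neighbours in the order, Bcl2a1b and Bax were the only ones whose intervals met, at 4.38 RPKM (4.04 to 4.75) and 4.20 RPKM (3.96 to 4.45). These intervals leave out the spread between mice, which may be larger, and the choice of the larger group mean for each gene. An order between close neighbours such as Bcl2l1 and Bcl2a1b, 1.16-fold apart, is therefore that of their Max group means only. Those means may come from different groups. The intervals also leave out the choice of gene length. The union of annotated exons was 4586 bases for Bcl2l1 and 1576 for Bax, against 2568 and 1100 in their longest transcripts. For Mcl1 both lengths were 3418 bases. Folds and order per base of the longest transcript were not computed.

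The antiapoptotic genes spanned the whole range of the family. Mcl1 (ENSMUSG00000038612, chromosome 3, 95658788 to 95663176, GRCm38), which binds BAK and the BH3-only proteins BIM and NOXA, ranked 209th of all genes by level, and 99.3% of genes above 0 lay below it in RPKM. Bcl2l1 (chromosome 2, 152780668 to 152831728), which encodes BCL-XL, the survival factor of late erythroid cells and platelets, was at 5.08 RPKM, 28.9-fold below Mcl1. Bcl2 (chromosome 1, 106538178 to 106714274), which sustains lymphocytes and declines as granulocytes mature, was at 0.541 RPKM, and 62.5% of genes above 0 lay below it. Among protein-coding genes above 0 that share was 49.5%, which places Bcl2 at the middle of the coding genes. Bcl2l1 exceeded Bcl2 9.39-fold per length.

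The mouse carries several near-identical copies of the A1 gene, which encodes a small antiapoptotic protein induced by NF-kB in myeloid cells. Bcl2a1b (ENSMUSG00000089929, chromosome 9, 89199209 to 89207827, plus strand) was at 4.38 RPKM and Bcl2a1d (ENSMUSG00000099974, chromosome 9, 88723285 to 88731914, minus strand) at 1.99 RPKM, a 2.20-fold difference. Of the copies that were not among the 10 members, Bcl2a1a (chromosome 9, 88956900 to 88962419) was at 1.81 RPKM, while Bcl2a1c (chromosome 9, 114330135 to 114330578) was at 0.0368 RPKM, which corresponds to 3 reads over 4 libraries. The first 150 coding bases of the 3 copies with more reads are shown because they hold 7 of the 12 positions, out of 516 coding positions compared, at which these copies differ; the capitals mark the positions that differ among them. In each copy the stretch lies in a single coding exon, at chr9:89199360-89199509 for Bcl2a1b, chr9:88731570-88731719 for Bcl2a1d and chr9:88957051-88957200 for Bcl2a1a (GRCm38, GENCODE M21 transcripts).
Bcl2a1b: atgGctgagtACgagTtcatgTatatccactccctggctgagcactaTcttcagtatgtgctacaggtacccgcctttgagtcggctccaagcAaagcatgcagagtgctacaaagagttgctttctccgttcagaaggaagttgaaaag
Bcl2a1d: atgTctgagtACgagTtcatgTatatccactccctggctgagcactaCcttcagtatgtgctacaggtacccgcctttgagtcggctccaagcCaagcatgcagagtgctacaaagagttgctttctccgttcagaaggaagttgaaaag
Bcl2a1a: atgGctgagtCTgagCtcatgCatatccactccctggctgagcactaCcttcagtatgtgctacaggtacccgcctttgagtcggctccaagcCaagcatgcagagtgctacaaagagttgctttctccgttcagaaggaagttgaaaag

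Outside these positions the copies were the same over long stretches. The coding sequences of Bcl2a1b and Bcl2a1d were 98.8% identical, with 6 differing bases and an identical run of 217 bases, and those of Bcl2a1a and Bcl2a1d were 98.6% identical, with a run of 314 bases. Bcl2a1c, whose coding sequence is 384 bases long, was 95.8% to 96.9% identical to the others. Reads of 150 bases were sequenced, and of all windows of that length in the Bcl2a1b transcript 41.9% also occur in the transcript of another gene, namely Gm29094, Bcl2a1d or Bcl2a1a. The share was 30.3% for Bcl2a1d and 28.2% for Bcl2a1a, and 0% for Bcl2a1c. It was 4.73% for Bax, which shares windows with Gm45808, and 0 windows were shared for the 7 other members. The sources used here do not say how the authors' counting placed reads that match several copies, so the split between Bcl2a1a, Bcl2a1b and Bcl2a1d is uncertain. Their sum is less exposed to that split: the 4 A1 genes together reached 8.22 RPKM, of which Bcl2a1b held 53.3%, and a gene at that level would have 87.7% of genes above 0 below it. The sum leaves out Gm29094, at 0.129 RPKM. It would also be too low if reads that match several genes were discarded.

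The effector genes lay far apart. Bak1 (ENSMUSG00000057789, chromosome 17, 27019810 to 27029009), whose protein resides in the mitochondrial membrane and is restrained by MCL1 and BCL-XL, was at 30.3 RPKM and ranked 1011th. Bax (ENSMUSG00000003873, chromosome 7, 45461697 to 45466898), whose protein waits in the cytosol until it is activated, was at 4.20 RPKM. Bak1 thus exceeded Bax 7.23-fold per length, and both were below Mcl1, by 4.83-fold and 34.9-fold. The third gene of this class, Bok, was at 0.0180 RPKM, or 6 to 7 reads.

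Each BH3-only member lay above at least 76.9% of genes above 0, but among genes at 1 RPKM or above Bcl2l11 lay above only 29.4%. Bid (chromosome 6, 120891930 to 120916853), which caspase-8 cleaves to link death receptors to mitochondria, was the highest at 11.2 RPKM, with 90.3% of genes above 0 below it. Pmaip1 (chromosome 18, 66458604 to 66465550), which encodes NOXA, a protein that binds MCL1 and A1 and speeds the loss of MCL1, was at 6.69 RPKM, 21.9-fold below Mcl1. Bcl2l11 (chromosome 2, 128126038 to 128162547), which encodes BIM, the main trigger of death in blood cells deprived of cytokines, was at 2.87 RPKM. Bid exceeded Pmaip1 1.67-fold and Bcl2l11 3.91-fold per length. Other BH3-only genes were at similar or far lower levels: Bad, which growth factor signaling inactivates, was at 4.41 RPKM, Bmf at 3.13 RPKM and the p53 target Bbc3 (PUMA) at 1.87 RPKM, whereas Bik and Hrk were at 0.0124 and 0.00286 RPKM, or 4 and 3 reads.

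Summed by role, the antiapoptotic members reached 159 RPKM, the effectors 34.5 RPKM and the BH3-only members 20.7 RPKM, or 74.1%, 16.2% and 9.70% of the total. The antiapoptotic sum was thus 4.59 times the effector sum and 7.64 times the BH3-only sum. Mcl1 carried nearly all of the antiapoptotic sum: the other 4 antiapoptotic members together reached 11.99 RPKM, against 4.20 RPKM for the effectors without Bak1 and 9.55 RPKM for the BH3-only members without Bid. With the wider family added, the sums were 162 RPKM for 9 antiapoptotic genes, 34.6 RPKM for 3 effectors and 30.2 RPKM for 8 BH3-only genes. These are sums of RNA levels in a mixed fraction, in which values of the PC-EV-educated and of the PBS group may stand side by side.

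**Figure D3:**
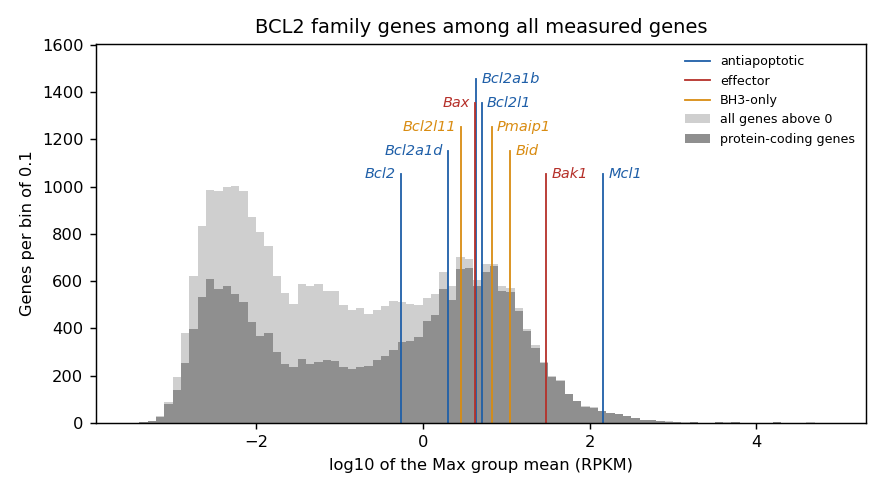
Number of genes per bin of 0.1 (vertical axis) against log10 of the Max group mean in RPKM (horizontal axis), for all 28225 genes above 0 (light) and the 18992 protein-coding ones (dark), with a line at each of the 10 members coloured by role. Mcl1 lies in the far right tail and Bcl2 left of all other members, while 5 members lie between 2.87 and 6.69 RPKM.

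Per length and per read, the members came in different orders, because their exons add up to very different lengths. The union of annotated exons was 817 bases for Bcl2a1b and 863 bases for Bcl2a1d, but 8029 bases for Bcl2l11 and 9157 bases for Bcl2. Multiplying the level by this length gives the share of counted reads, expressed as reads per 1000000 counted (RPM). Mcl1, Bak1 and Bid kept the first 3 places, with 501, 73.0 and 39.7 RPM. Bcl2l11 moved up to the fifth place at 23.0 RPM, next to Bcl2l1 at 23.3 and ahead of Pmaip1 at 18.3 RPM. Bcl2, the lowest per length, had 4.95 RPM, more than Bcl2a1b at 3.58 and Bcl2a1d at 1.72 RPM. Thus the A1 genes, not Bcl2, were those read from the fewest reads.

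**Figure D4:**
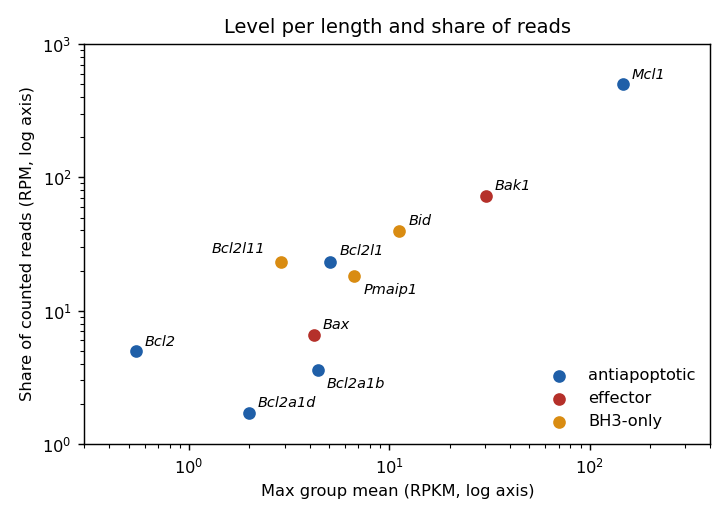
Share of counted reads in RPM (vertical log axis) against the Max group mean in RPKM (horizontal log axis) for the 10 members, coloured by role. Bcl2 and Bcl2l11, with the longest exonic lengths of 9157 and 8029 bases, have more reads for their level than the other members, and Bcl2a1b and Bcl2a1d, at 817 and 863 bases, have the fewest.

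Exons that overlap those of a neighbour touched 5 members. Bid shares 628 exonic bases, 17.7% of its length, with Bcl2l13 on the opposite strand, a family gene at 4.27 RPKM. Bak1 shares 437 bases, or 18.2%, with Ggnbp1 on the opposite strand, at 0.967 RPKM. A second annotated entry named Ggnbp1, also on the opposite strand, shares 177 bases, or 7.35%, and had no level. Bcl2 shares 558 bases with an antisense transcript at 0.00247 RPKM. On the same strand, Bcl2a1b shares 401 bases, 49.1% of its exonic length, with Gm29094 at 0.129 RPKM, and Bax shares 192 bases with Gm45808 at 0.0926 RPKM. The libraries were strand specific, but no source used here says whether the counting used strand.

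Promoters of the members differed in their content of the dinucleotide CG, which is dense in the promoters of many broadly expressed genes. RefSeq windows of 300 bases around the gene start (GRCm38.p6, 250 before and 50 after) were at hand for 9 of the 10 members, 12 windows in all. The member windows had a median of 20.5 CG, against 7 over 32851 windows of all genes. The windows of Bcl2 and Mcl1, the lowest and the highest member per length, held 44 and 33 CG, more than 97.8% and 91.4% of all windows. Those of Bcl2a1b and Bcl2a1d held 4 CG each, with 31.4% of all windows below them. Bak1 had 11 CG, Bax 19, Bid 22, and the 2 windows of Bcl2l11 27 and 38. Among the 3 windows of Bcl2l1, the counts were 1, 14 and 22. Promoter content and level were not tested against each other.

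The wider BCL2 family, 16 further genes, ranged from levels like those of the members down to a few reads. Of these genes 15 were above 0 and 9 were at 1 RPKM or above, against 8638 of the 18992 protein-coding genes above 0. The median was 1.67 RPKM. The highest was Bnip3l (NIX), which tags mitochondria for removal, at 31.1 RPKM, 1.03 times Bak1 and 8.70 times its relative Bnip3 at 3.58 RPKM. Bad and Bcl2l13 followed at 4.41 and 4.27 RPKM. Bcl2l2, which encodes BCL-W, was at 1.53 RPKM. The lowest 3 were Bik, Hrk and Bcl2l10, the last at 0 in a table in which a single read in 1 library of 4 gives a value above 0.

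The caspase machinery that acts upstream of BID at death receptors and downstream of mitochondria was also measured. All 14 genes of the apoptosome, the caspases and their inhibitors were above 0, with a median of 9.10 RPKM. Of these, 13 were at 1 RPKM or above, against 8638 of the 18992 protein-coding genes above 0. Apaf1, the scaffold of the apoptosome, was at 15.8 RPKM. The lowest were Fadd, the adaptor of death receptors, at 2.68 RPKM, Diablo, which relieves caspase inhibition, at 1.33 RPKM, and Casp6 at 0.444 RPKM.

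Regulators and partners of the family were all at 3.25 RPKM or above, with a median of 8.004 RPKM over 11 genes. Tpt1, whose protein binds MCL1 and is among the most abundant transcripts of many cells, was the highest at 176 RPKM, 1.20 times Mcl1. Bcap31, an endoplasmic reticulum protein cleaved in apoptosis, and Vdac1, a channel of the outer mitochondrial membrane, followed at 33.2 and 21.8 RPKM. The lowest were Huwe1 at 4.82 RPKM and Fbxw7 at 3.25 RPKM, ubiquitin ligase components that mark MCL1 for degradation, with Ddit3, the stress factor CHOP, between them at 4.68 RPKM.

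**Figure D5:**
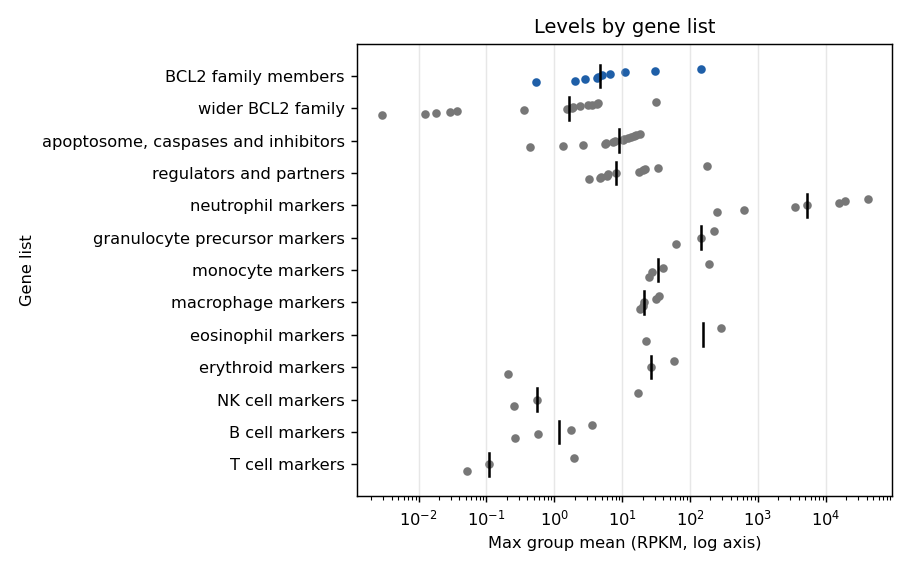
Max group mean in RPKM (horizontal log axis) of the genes of 13 lists; each point is a gene above 0 and each black line the median of its list, genes at 0 included. The 10 members, in blue, range from 0.541 to 147 RPKM, and the highest of them lies below all 7 neutrophil markers, which start at 247 RPKM.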

How the data were processed

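Total RNA of 8 samples of CD11b+ BM cells, 4 of PC-EV-educated and 4 of PBS mice, was made into stranded libraries after removal of ribosomal RNA and read as pairs of 150 bases. Reads were aligned to GRCm38, and the authors tested the groups against each other in a negative binomial model influenced by edgeR, a name that the submitters' processing notes also hold. No source used here names the aligner, the annotation release or a software version. Deposited by the authors were, per gene, a Max group mean, taken from its values to be in RPKM, and columns of their own comparison: fold changes, p-values and adjusted p-values. Those columns, and a file of genes selected by them, were not used here. No column holds a single sample, so no difference between groups was tested, and no spread between samples can be given.

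Of 41018 rows, 28225 were above 0 and 12793 at 0. Exonic lengths came from GENCODE M21, which holds 40934 of the gene IDs and all 10 members. Start and end were identical for 39124 gene IDs and for 9 of the 10 members. For the remaining member the length used by the authors may differ from the one used here. Levels multiplied by length were compared to 4 decimals, and a step was a value shared by at least 20 genes, or by at least 10 among short or single-exon genes. The step search was tested on simulated tables. Reads behind a level were bounded by the highest and lowest step, and intervals are exact 95% Poisson intervals. Windows of 150 bases in the longest transcript of each gene were looked up in all GENCODE M21 transcripts, and A1 coding sequences were aligned with Biopython 1.88. Python 3.11.15, pandas 2.3.3, numpy 2.4.6, scipy 1.17.1 and matplotlib 3.10.9 were used. Named were the 10 members and, of each further list, up to 3 highest and 3 lowest genes, some of which are not reported here; Bmf, Bbc3, Bok, Bcl2l2, Bcl2a1a, Bcl2a1c and Bnip3 were named besides to complete their class, after their values had been seen. Members and lists were chosen with earlier results of these data known.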

Additional observations from a re-analysis of the deposited data

How the results depend on the processing

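The share of genes below the median member was 82.0% among genes above 0. It was 64.0% among genes at 0.1 RPKM or above, 44.8% among genes at 1 RPKM or above, 74.0% among protein-coding genes above 0 and 87.6% among all rows. Each of the 10 members moved beyond its exact binomial interval under each of these 4 choices. That outcome was largely fixed in advance, since the choices mostly drop or add genes at low levels. The intervals are narrow over so many genes, and they measure no spread between samples. Of the 10 members, 4 kept their place when ordered by level times exonic length and 5 by level times longest transcript. The second product is neither a read share nor a level per base of the longest transcript. It therefore cannot show how the order depends on the length used. The antiapoptotic sum was 159 RPKM, and it was 162 RPKM with the wider family, 11.99 RPKM without Mcl1, 160.4 RPKM with all 4 A1 genes and 152 RPKM without any A1 gene. The effector sum was 4.20 RPKM without Bak1. The BH3-only sum was 30.2 RPKM with the wider family and 9.55 RPKM without Bid. The same 8 steps were found among genes spanning at most 300 bases and among single-exon genes, with the search again capped at 8. No paired analysis was possible because no column holds a single sample, and leaving out samples was not run for the same reason. Levels of the A1 genes rest on the fewest reads and on shared sequence.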

Other observations

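The depth of the libraries was read from the step sizes with the level taken as RPKM, and no step was tied to a sample. The steps of 1 set gave 53510000, 48880000, 46650000 and 42260000 counted reads, and those of the other set 49210000, 47910000, 42710000 and 42230000, so that the deepest library had 1.27 times the reads of the shallowest. Summed over all genes, the level times exonic length came to 77.0% of the value at which every counted read would lie in a listed exon. The neutrophil genes S100a9 and S100a8 took 4.58% of level times length and 15.1% of the summed RPKM.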
